A study of Mus musculus with 45 samples.

Results

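The 10 genes described here are widely used markers of radial glia, chosen by name as known markers, with no measured value in the rule, although earlier results of these data were known when they were chosen: Nes, Vim, Prom1, Fabp7, Slc1a3, Ptprz1, Pax6, Emx2, Lhx2 and Hopx. They are 10 of the 53491 genes listed for each library. Radial glia are the neural stem cells of the embryonic cortex. Their cell bodies line the ventricle, a long fibre reaches the outer surface, and they divide to renew themselves, to make neurons directly or through intermediate progenitors, and later to make glia. Before neurogenesis the same germinal layer consists of neuroepithelial cells, which already carry Nes, Vim, Pax6, Emx2 and Lhx2 transcripts.

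Primary cells were dissociated from the cortex of wild-type mouse embryos at 3 stages, namely E11.5, then E14.5 and last E16.5. A pool held the cells of 7 embryos at E11.5 and of 2 embryos at the later stages, with 3 pools for each stage (named A, B and C), and was divided over 5 wells in a neural progenitor medium with basic FGF and the N2 and B27 supplements. All wells received 100 uM 4-thiouridine for 20 h, a uridine analogue that enters new RNA and reads as a T-to-C change after alkylation, and then 5 mM uridine. Wells were lysed at the start of this chase (0 h) or after 2, 4, 8 or 12 h, which gave 45 libraries in 15 groups of 3. No untreated or unlabelled control group was used here, and all libraries had been through the labelling culture.

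Library depth ran from 15.9 to 43.9 M reads (M, 1000000) with a median of 33.0 M, and from 21571 to 25000 genes had a read. The ribosomal-repeat transcript Gm42418 took 0.149% of reads in the lowest library and 6.76% in the highest, pool C of E11.5 at 12 h. All members had reads in every library, and Hopx had the fewest. The lowest read count of Hopx in any library was 162 (pool A of E16.5 at 8 h), that of Pax6 was 453, that of Prom1 631 and that of Emx2 715, while Vim reached 240516 reads. Levels are given in counts per 1000000 reads (CPM). The labelled tissue was checked against its markers: summed levels of 10 genes of cortical neurons were 3102 to 3699 CPM at 0 h in the E11.5 pools, 6232 to 7021 in those of E14.5 and 9034 to 9503 in those of E16.5. Summed levels of 7 meningeal and mural genes were 465 to 704 CPM at E11.5 and between 15.3 and 33.3 CPM at both later stages, and those of 4 erythroid genes were 1599 to 3552 CPM at E11.5 and between 27.1 and 61.6 CPM later. Endothelial (5 genes) and microglial (4 genes) lists stayed at or below 11.7 CPM in all 9 pools.

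All 10 members are protein-coding genes. On mouse build GRCm38, with GENCODE release 21, they lie at chr3:87971078-87980451 (Nes, plus strand), chr2:13573927-13582826 (Vim, plus), chr5:43993620-44102032 (Prom1, minus), chr10:57784881-57788450 (Fabp7, plus), chr15:8634124-8710764 (Slc1a3, minus), chr6:22875502-23052916 (Ptprz1, plus), chr2:105668900-105697364 (Pax6, plus), chr19:59458372-59465357 (Emx2, plus), chr2:38339281-38369733 (Lhx2, plus) and chr5:77086988-77115121 (Hopx, minus). Exons of an antisense gene overlap 5.91% of the exon bases of Prom1 (Gm16401), 8.79% of those of Emx2 (Emx2os) and 27.2% of those of Hopx (Hopxos). The libraries were stranded, but use of strand in counting was not given in the sources used here, so reads of these 3 members are uncertain to that extent.

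Because the experiment followed RNA decay, the 3′ untranslated regions (3′ UTRs) of the members were read for a pair of short motifs known from RNA turnover. Pumilio proteins bind the letters TGTANATA and promote decay, and ATTTA, in capitals here as DNA, is the core of AU-rich elements. Both were searched on the transcript strand only, in the longest coding isoform. Of the 8688 transcripts with a half-life at all stages and an annotated 3′ UTR, 29.3% held TGTANATA and 72.3% held ATTTA. Among the members TGTANATA occurred in Emx2, Hopx, Prom1 and Ptprz1. These windows are shown because they are the only Pumilio matches among the members. Each holds the match in capitals and 10 bases on either side, 5′ to 3′, from the GENCODE release 21 transcripts.

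Emx2 chr19:59465234-59465261 (plus): tataccagatTGTAAATAtttttgtgtt
Hopx chr5:77087574-77087601 (minus): tttttttttaTGTATATAactaaaaaaa
Prom1 chr5:43994069-43994096 (minus): tatagtaaacTGTATATAtaccctttta
Ptprz1 first site chr6:23052381-23052408 (plus): aaaatcaattTGTAGATAataggaaaca
Ptprz1 second site chr6:23052579-23052606 (plus): tagtaacttaTGTAAATActgctctggt

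ATTTA was present 4 times in Hopx, 3 times each in Emx2 and Prom1, 2 times each in Lhx2, Pax6, Ptprz1 and Slc1a3, once in Fabp7 and not in Nes or Vim. The median over all transcripts was 2. The 3′ UTRs of Fabp7 (227 nucleotides) and Vim (312) were the shortest of the 10, at percentiles 10.3 and 15.5 of all transcripts, and that of Slc1a3 was the longest at 2008 nucleotides (percentile 69.5). Fabp7 and Ptprz1 had AT-rich 3′ UTRs with 30.4% and 30.3% GC, against a median of 43.8%, whereas that of Nes held 55.8%. A match is a description of these letters and not a binding site.

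The first comparison asked how the steady level of each member differed between stages at 0 h. Of the 10 members, 9 were lower at E16.5 than at E11.5 and Slc1a3, the glial glutamate transporter GLAST, was higher. Hopx fell most (19.1-fold), followed by Vim (9.36-fold) and Fabp7 (4.70-fold), and Ptprz1 fell least, by 0.46 on the log2 scale. The background was 33.1% of 18408 tested genes lower and 31.4% higher in the same comparison (adjusted p under 0.05, edgeR quasi-likelihood F-test). In bulk samples, fewer cells of a type and less RNA per cell cannot be told apart, and the p-values measure the spread between pools of embryos.

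Among the genes of the cell skeleton and surface, Vim, an intermediate filament protein, was the most abundant member in CPM at 0 h. It read 6993, 7225 and 6736 CPM in pools A, B and C at E11.5, 2068, 2578 and 2326 CPM at E14.5, and 666, 738 and 719 CPM at E16.5. Ranked over protein-coding genes it held place 1 in the E11.5 libraries, place 11 in those of E14.5 and place 83 in those of E16.5. The stages did not overlap, with log2 changes of -1.54 ± 0.08 (SE) at the earlier step (adjusted p = 7.98e-09) and -1.69 ± 0.08 at the later one (adjusted p = 2.05e-08). Vim is also made by meningeal and mural cells, whose summed markers were high at E11.5 as given above. Their part in this fall was not tested.

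Nes, the intermediate filament protein nestin, read 811, 788 and 783 CPM at E11.5, 270, 424 and 342 CPM at E14.5 and 194, 217 and 210 CPM at E16.5. The 3 stages were again separate, although the E14.5 pools spread widely. Its log2 changes were -1.13 ± 0.12 (adjusted p = 7.47e-06) and -0.74 ± 0.12 (adjusted p = 2.68e-04). Prom1 encodes prominin-1, a membrane protein of the apical surface. Its levels were 91.2, 83.8 and 101 CPM at E11.5, 53.2, 49.0 and 62.2 CPM at E14.5 and 28.2, 32.1 and 26.7 CPM at E16.5, so it fell at both steps without overlap, by 0.71 and 0.91 on the log2 scale (SE 0.10 for each).

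Fabp7, the brain fatty acid-binding protein BLBP, read 1595, 1688 and 1659 CPM at E11.5, 946, 827 and 1079 CPM at E14.5 and 327, 355 and 319 CPM at E16.5. The later step was the larger one, with a log2 change of -0.77 ± 0.08 to E14.5 and -1.46 ± 0.08 to E16.5 (adjusted p = 5.85e-06 and 6.25e-08). Slc1a3 followed another course. It stood at 93.9, 98.7 and 105 CPM at E11.5, 252, 279 and 340 CPM at E14.5 and 181, 205 and 183 CPM at E16.5. All E14.5 pools were above all other pools, and all E16.5 pools were above E11.5. Slc1a3 rose 3.01-fold to E14.5 (log2 1.59 ± 0.09, adjusted p = 2.83e-08) and then fell by 0.58 ± 0.09 (adjusted p = 1.97e-04), which left it 2.01-fold above E11.5.

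Ptprz1, a receptor-type tyrosine phosphatase of radial glia and of the oligodendrocyte lineage, changed little. It read 810, 718 and 796 CPM at E11.5, 605, 624 and 748 CPM at E14.5 and 523, 579 and 490 CPM at E16.5. The E11.5 and E14.5 pools overlapped and did not pass the test (log2 -0.20 ± 0.09, adjusted p = 0.0828), while E16.5 lay below both. The step from E14.5 to E16.5 passed (-0.27 ± 0.09, adjusted p = 0.0221) but no longer did so without E14.5 pool C (adjusted p = 0.0933), E16.5 pool A (0.103) or E16.5 pool C (0.101). Without E11.5 pool B or E14.5 pool C the earlier step passed (adjusted p = 0.0495 and 0.0137), as it did in limma on log2 CPM (0.0382).

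The homeodomain factors were lower at E16.5 than at E11.5. Pax6, which drives the neurogenic programme of cortical radial glia, read 93.9, 78.9 and 84.2 CPM at E11.5, 50.7, 47.7 and 49.0 CPM at E14.5 and 29.0, 30.5 and 25.5 CPM at E16.5. It fell in similar steps of 0.73 ± 0.09 and 0.80 ± 0.09 on the log2 scale (adjusted p = 2.27e-05 and 1.28e-05). Emx2, a factor of cortical arealisation, read 159, 141 and 150 CPM at E11.5, 61.6, 62.9 and 67.3 CPM at E14.5 and 41.9, 40.5 and 41.2 CPM at E16.5. Its fall was larger at the earlier step (-1.22 ± 0.06) than at the later one (-0.58 ± 0.06).

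Lhx2, a LIM homeodomain factor that sets cortical identity and keeps progenitors dividing, read 585, 625 and 527 CPM at E11.5, 301, 341 and 294 CPM at E14.5 and 291, 264 and 282 CPM at E16.5. It fell to E14.5 (log2 -0.82 ± 0.08, adjusted p = 1.77e-06). The later pools did not overlap, yet the step to E16.5 did not pass (-0.18 ± 0.08, adjusted p = 0.0649) except without E14.5 pool C (-0.24, adjusted p = 0.0262) or with no count filter (-0.20, 0.0457). Hopx encodes a small homeodomain protein that does not bind DNA and marks outer radial glia in species with a folded cortex. It read 272, 268 and 338 CPM at E11.5, 44.2, 50.1 and 52.4 CPM at E14.5 and 12.3, 12.7 and 18.5 CPM at E16.5. The stages were far apart, with log2 changes of -2.50 ± 0.16 and -1.75 ± 0.15 (adjusted p = 4.55e-08 and 1.41e-06).

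**Figure D1:**
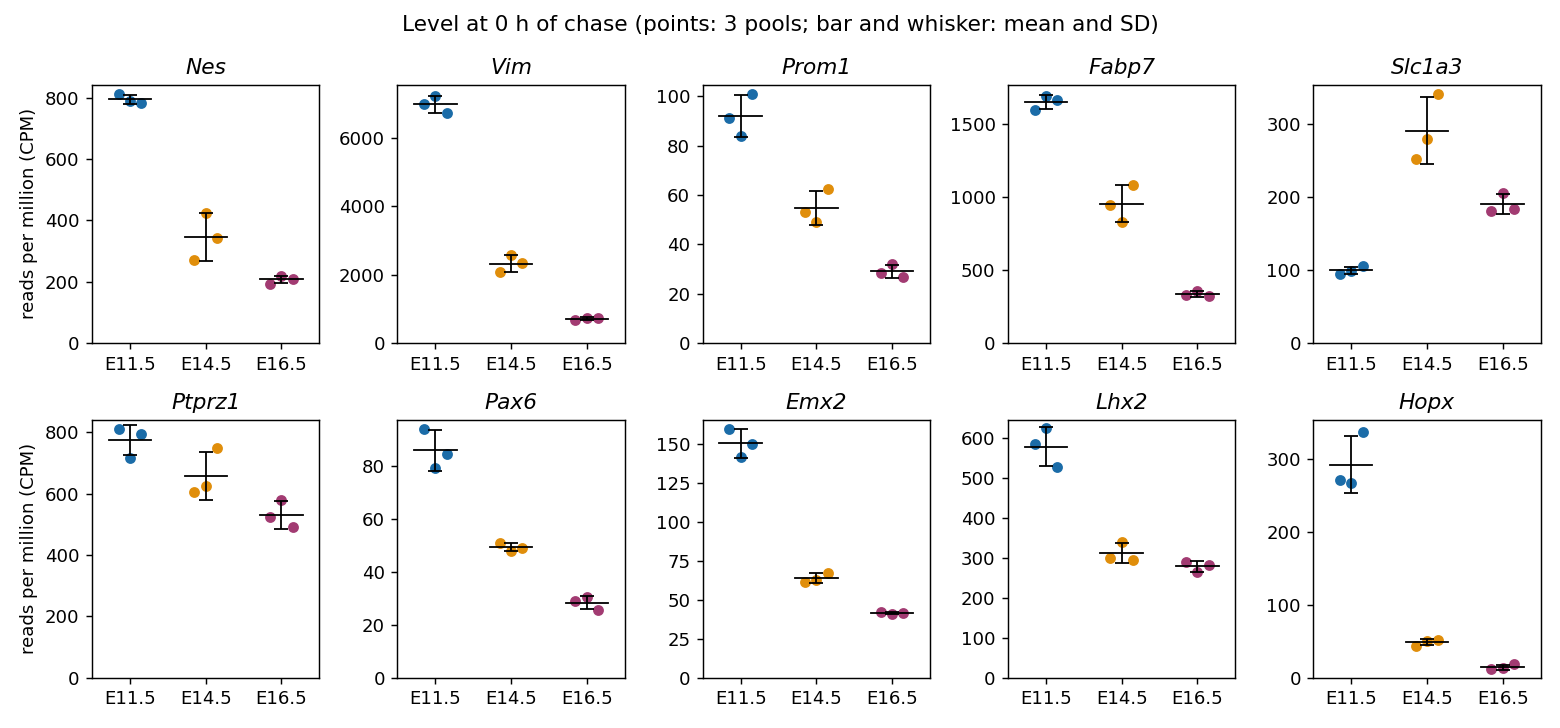
Level of each of the 10 members at 0 h of the chase in CPM (vertical axis, linear from 0, scaled per panel) by stage (horizontal axis). Points are the 3 pools of a stage and bars with whiskers their mean and SD; Slc1a3 peaks at E14.5 while the other 9 are lowest at E16.5.

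From E11.5 to E14.5 1 member rose and 8 fell, beside 25.1% of all tested genes higher and 23.5% lower, and the median member change was -0.79 on the log2 scale against -0.01 for all genes. From E14.5 to E16.5 none rose and 9 fell, beside 24.1% higher and 25.4% lower, with a median of -0.77 against -0.00. From E11.5 to E16.5 1 rose and 9 fell, with a median of -1.71 against -0.04. With a change of over 2-fold required as well, 8 members fell over the whole interval, beside 14.6% of all genes, with Lhx2 just at the margin (2.00-fold, and -0.95 on the log2 scale without E11.5 pool B). The comparisons share their pools and are not independent of each other. When the 12 h libraries were compared in place of the 0 h libraries, an alternative added after seeing the data, Slc1a3 no longer differed beyond the threshold between E16.5 and E11.5 (0.15, adjusted p = 0.143) and Ptprz1 was higher at E14.5 than at E11.5 (0.24, adjusted p = 0.00563).

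Apart from the place of Vim in CPM given above, levels of different members were compared per kilobase of exon. At E11.5 the order in CPM per kb was Vim (1473), Fabp7 (1318), Hopx (193), Lhx2 (132), Nes (124), Ptprz1 (54.4), Emx2 (50.0), Prom1 (12.8), Slc1a3 (11.6) and Pax6 (7.33). Lhx2 and Nes, Ptprz1 and Emx2, and Prom1 and Slc1a3 overlapped between pools there. At E14.5 Fabp7 (761) stood above Vim (490), followed by Lhx2 (71.0), Nes (53.8), Ptprz1 (46.2), Slc1a3 (34.0), Hopx (32.2), Emx2 (21.3), Prom1 (7.64) and Pax6 (4.20), with overlap between Nes and Ptprz1 and between Slc1a3 and Hopx. At E16.5 no neighbours overlapped: Fabp7 (267) and Vim (149) led, Ptprz1 (37.3) stood above Nes (32.2), and Hopx (9.55) had dropped below Emx2 (13.7). Pax6 was lowest per kb at all 3 stages on this measure, which takes all annotated exons of a gene. Per kb of the longest coding isoform Prom1 was lowest instead (23.2, 13.8 and 7.31 CPM per kb, against 29.9, 17.1 and 9.88 for Pax6), and Slc1a3 stood above Nes at E14.5 and E16.5.

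Other genes of cortical progenitors were read from a list of 22, of which 21 were measured here. From E11.5 to E16.5 2 of the 21 rose and 18 fell, with a median of -1.63. Aldoc, a glycolytic enzyme of glial cells, fell most (-3.36), and Mfge8, a secreted glycoprotein, rose by 2.00. From E14.5 to E16.5 none rose and 16 fell, with a median of -0.90. In the same 0 h libraries all 10 neuronal genes were higher at E16.5 than at E11.5. Of 7 intermediate progenitor genes 1 rose and 4 fell, of 5 tested astrocyte genes 2 rose and 1 fell, of 4 oligodendrocyte precursor genes 3 rose, and all 5 interneuron genes rose. Of 7 meningeal and mural genes 1 rose and 6 fell, and all 4 erythroid genes fell. The part of these cell types in the fall of the members was not tested.

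The next comparison followed levels within a stage over the chase, 12 h against 0 h, in which time in culture and time after labelling cannot be told apart. Slc1a3, Fabp7, Ptprz1, Prom1 and Nes were higher at 12 h in the stages where they passed the test, Pax6 was lower at E14.5 and E16.5, and Hopx was lower at E14.5. Of the 10 members 3 rose and 0 fell at E11.5, beside 13.2% of tested genes higher and 9.83% lower. At E14.5 3 rose and 2 fell, beside 7.64% and 7.41%, and at E16.5 4 rose and 1 fell, beside 14.2% and 12.0%. With the pool as a block, since wells of a pool share their cells, 5 rose and 2 fell at E11.5, 5 rose and 3 fell at E14.5, and 6 rose and 2 fell at E16.5. The block also raised the number of all genes called, to 5792 in place of 4122 for E11.5, to 4966 in place of 2702 for E14.5 and to 6658 in place of 4724 for E16.5. Values of single members below are from the fit without the block unless another fit is named.

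Slc1a3 at E11.5 climbed from 93.9, 98.7 and 105 CPM at 0 h to 103, 111 and 121 at 2 h, 139, 147 and 152 at 4 h, 197, 205 and 207 at 8 h and 213, 223 and 195 at 12 h. Pools at 0 h lay below all pools from 4 h on. The change to 12 h was 2.42-fold (log2 1.28 ± 0.06, adjusted p = 1.05e-08), and a rise was already called at 4 h (0.55, adjusted p = 3.77e-04, beside 3.89% of genes higher). At E14.5 the 12 h pools read 305, 397 and 394 CPM and overlapped with those at 0 h (0.34 ± 0.13, adjusted p = 0.0963), and passed with the pool as a block (adjusted p = 2.34e-04) or with no count filter (0.0468). At E16.5 they read 249, 262 and 234 CPM, above all 0 h pools (0.42 ± 0.06, adjusted p = 1.23e-04).

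Fabp7 at E16.5 rose from the 0 h levels given above to 561, 529 and 474 CPM at 12 h, a 1.60-fold change (0.67 ± 0.06, adjusted p = 2.47e-06) without overlap. At E14.5 it read 1171, 1359 and 1521 CPM at 12 h (0.51 ± 0.13, adjusted p = 0.0155). At E11.5 it read 1626, 1715 and 1581 CPM, overlapping with the 0 h pools. There the call (0.19 ± 0.06, adjusted p = 0.0269) rested on the scaling and on every pool: without pool A, B or C the adjusted p was 0.160, 0.207 and 0.0678. In plain CPM the E11.5 value was -0.01 (adjusted p = 0.946, limma). At E14.5 the Fabp7 call was lost without pool A or B (adjusted p = 0.1004 and 0.1433). That call was kept in 10 of 12 alternatives (lowest adjusted p 3.02e-06). Between 0 h and 12 h at E11.5 plain CPM shifted the median of all genes by -0.17, against 0.02 with the scaling used.

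Ptprz1 read 935, 1078 and 1026 CPM at 12 h at E14.5, all above the 0 h pools, a 1.54-fold rise (0.62 ± 0.10, adjusted p = 6.26e-04; without pool B 0.0503). At E16.5 it read 744, 731 and 659 CPM (0.44 ± 0.08, adjusted p = 5.77e-04), and at E11.5 808, 810 and 721 CPM, overlapping with 0 h (0.17 ± 0.07, adjusted p = 0.0842, with the block 0.0384). The rise was thus called at the later stages. Ptprz1 kept the E14.5 call in 11 of 12 alternatives (lowest adjusted p 2.20e-07). Prom1 rose by 0.36 ± 0.07 at E11.5 (adjusted p = 0.00124) and by 0.31 ± 0.10 at E14.5 (adjusted p = 0.0411), the latter not without pool A or B (0.248 and 0.293). Prom1 kept the E14.5 call in 10 of 12 alternatives (lowest adjusted p 0.00212). At E16.5 its change of 0.36 ± 0.13 missed the threshold (adjusted p = 0.0536) but passed in 5 of 12 alternatives, including the block (4.07e-05), DESeq2 (0.0148) and the fit without pool C (0.0264). Nes rose at E16.5, from 194, 217 and 210 to 252, 266 and 262 CPM (0.36 ± 0.05, adjusted p = 8.17e-05), and with the block at E14.5 (0.25, adjusted p = 0.00213).

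Among the homeodomain factors Pax6 fell over the chase at the later stages. It read 92.1, 87.9 and 81.0 CPM at 12 h at E11.5, which overlapped with 0 h (0.22 ± 0.08, adjusted p = 0.0596, with the block 0.0112). At E14.5 it had fallen to 44.8, 37.7 and 37.97 CPM (-0.26 ± 0.08, adjusted p = 0.0404) and at E16.5 to 21.65, 23.001 and 21.93 CPM (-0.32 ± 0.10, adjusted p = 0.0311). The later stages did not overlap with their 0 h pools. The E14.5 call was lost without pool A, B or C (adjusted p = 0.0642, 0.251 and 0.166) and the E16.5 call without pool A or B (0.206 and 0.0835). Of 12 alternatives, 7 kept the E14.5 call and 10 the E16.5 call, with a lowest adjusted p of 0.00314 and 3.9e-04. Hopx fell at E14.5 to 32.8, 34.6 and 37.5 CPM (-0.45 ± 0.11, adjusted p = 0.01203; without pool B 0.139). Hopx kept the E14.5 call in 11 of 12 alternatives (lowest adjusted p 5.84e-05). With the block it also fell at E16.5 (-0.26, adjusted p = 0.00607).

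Vim changed by -0.20 at E11.5 (adjusted p = 0.0564), -0.24 at E14.5 (0.135) and -0.03 at E16.5 (0.877), none of which passed at 12 h. At E11.5 it lay near the threshold and passed in 8 of 12 alternatives, among them the block (adjusted p = 0.0228), recovered reads (0.0367) and the fit without pool C (0.0223). It also passed at E14.5 with the block (adjusted p = 4.74e-04). Emx2 and Lhx2 did not pass either, with changes between -0.15 and 0.12. Emx2 passed at E11.5 in 4 of 12 alternatives (block, adjusted p = 0.0251; counts over 100, 0.0444), and Lhx2 passed at E16.5 with the block (adjusted p = 0.0180). In plain CPM (limma) Vim (-0.39), Emx2 (-0.33), Nes (-0.25) and Lhx2 (-0.23) were all lower at 12 h at E11.5, where plain CPM moves the median gene as given above.

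Members also passed against 0 h at earlier times of the chase. At 2 h no member passed. At E11.5 Vim was lower at 4 h (-0.31, adjusted p = 0.0196, beside 2.35% of genes lower) and at 8 h (-0.26, adjusted p = 0.0211), and Emx2 was lower at 8 h (-0.22, adjusted p = 0.0196), beside 5.96% lower. Slc1a3 was higher at 8 h there (1.02, adjusted p = 3.23e-07, beside 8.15% higher). At E14.5 Vim was lower at 4 h (-0.42, adjusted p = 0.0274) and Hopx was lower at 4 h (-0.53, adjusted p = 0.0111), beside 1.89% of genes lower. At E16.5 Fabp7 was higher at 4 h and 8 h (0.23 and 0.34, adjusted p = 0.0194 and 0.00123), and Nes (0.30, adjusted p = 5.13e-04) and Slc1a3 (0.33, 0.00125) at 8 h, beside 7.54% and 10.8% higher.

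All 4 oligodendrocyte precursor genes rose over the chase at each stage, and their summed level was 129, 360 and 311 CPM at 0 h and 219, 830 and 593 CPM at 12 h, in order of stage. Ptprz1 is also a gene of that lineage. The part of such cells in its rise was not tested.

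The change over the chase was also compared between stages in a test of the difference itself, added after seeing the data. Against E11.5, 1 member rose more and 2 rose less or fell at E14.5 (Ptprz1 against Slc1a3 and Pax6), beside 1.36% of 16559 genes higher and 4.70% lower. At E16.5 1 was higher and 2 were lower (Fabp7 against Slc1a3 and Pax6), beside 3.47% and 5.43%, and between E14.5 and E16.5 no member differed beyond the threshold, beside 0.906% in either direction.

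**Figure D2:**
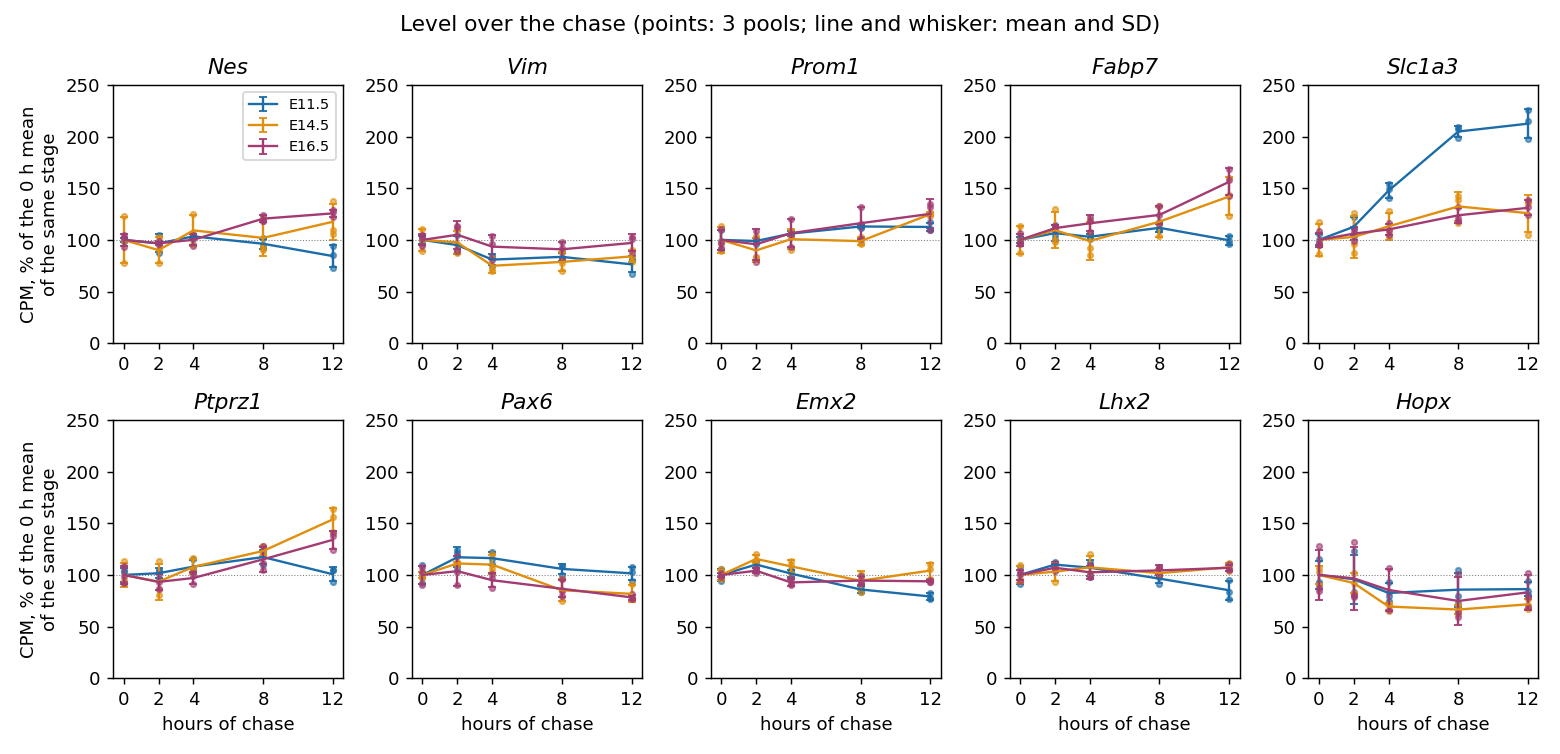
Level of each member over the chase (horizontal axis, hours) as a percent of the 0 h mean of the same stage (vertical axis), one colour per stage, with points for the 3 pools and lines through their means. At E11.5 and 12 h the mean of Slc1a3 is 213% of its 0 h mean in these plain CPM units, and those of Emx2 and Lhx2 are 79.1% and 85.2%.

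The third comparison concerned RNA decay. After the chase starts, unlabelled RNA replaces labelled RNA and the T-to-C conversion rate of a transcript falls, so the half-life is that of the label under a single exponential. All 10 members passed the quality limits in all 9 pools (over 500 covered Ts, a half-life of up to 24 h and a fit R2 over 0.6). Their mean percentiles among all transcripts of a stage ran from 4.31 to 97.0. Fabp7 and Ptprz1 formed the long-lived end (with Hopx between them at E16.5) and Pax6 and Emx2 the short-lived end. The median half-life of all transcripts was 4.43 h over 10858 transcripts at E11.5, 4.60 h over 10686 at E14.5 and 3.48 h over 11850 at E16.5.

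Fabp7 had half-lives of 8.16, 9.42 and 7.13 h in the E11.5 pools, 9.07, 8.69 and 9.79 h in the E14.5 pools and 8.26, 8.48 and 9.33 h in the E16.5 pools. Its mean percentile among transcripts was 92.3, 94.1 and 97.0. Ptprz1 had 7.19, 8.50 and 6.50 h, then 7.13, 7.43 and 8.22 h, then 6.73, 7.24 and 7.06 h. Its mean percentile was 88.8, 88.6 and 93.1, so both were long-lived at every stage, and the pools of different stages overlapped in hours. Vim followed with 5.93, 6.54 and 5.48 h, 6.13, 6.37 and 6.93 h and 5.46, 5.87 and 5.78 h. At E14.5 Fabp7, Ptprz1 and Vim were each separate from the next member in the order, whereas at E11.5 all neighbours in the order overlapped.

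The middle of the range held Nes (4.51 to 6.08 h over the 9 pools), Prom1 (4.00 to 5.53 h) and Slc1a3 (3.60 to 5.40 h). These 3 overlapped with each other where they were next in the order at E14.5 and E16.5. Lhx2 had 3.77, 4.21 and 3.21 h in the E11.5 pools, 3.87, 3.54 and 3.97 h in the E14.5 pools and 2.54, 2.46 and 2.76 h in the E16.5 pools. The E16.5 pools of Lhx2 were below all earlier ones, and its mean percentile moved from 31.8 to 29.9 and 24.6. Pax6 had 2.64, 3.55 and 2.29 h, 2.55, 1.91 and 2.35 h and 1.80, 2.40 and 2.69 h at the 3 stages. Emx2 had 2.48, 2.85 and 2.53 h, 2.44, 2.15 and 2.23 h and 2.58, 2.46 and 1.84 h. Pax6 and Emx2 overlapped with each other at every stage.

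Of the members with a Pumilio match shown above, Emx2 was among the shortest-lived and Ptprz1 among the longest-lived, with Prom1 between them, and Hopx between them at E11.5 and E14.5 but above Ptprz1 at E16.5. The members without ATTTA, Nes and Vim, were in the upper middle, and Fabp7, with a single ATTTA and the shortest 3′ UTR of the 10, was the longest-lived. These are descriptions over 10 genes.

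Hopx was the member with the least certain half-life. It had 4.75, 5.94 and 5.37 h in the E11.5 pools and 4.35, 4.38 and 5.07 h in the E14.5 pools, but 9.53, 9.40 and 5.21 h in the E16.5 pools, where its level was lowest. The fit R2 in the E16.5 pools was 0.898, 0.656 and 0.963. At 0 h the conversion rate there was 1.33% in pool A (Wilson 95% interval 1.04% to 1.69%), 0.716% in pool B (0.555% to 0.922%) and 1.00% in pool C (0.827% to 1.21%), from 322, 536 and 692 reads. The intervals cover counting error only, and Ts of a read are not independent. Pools A and B do not overlap in these intervals. Late in the chase the E16.5 label of Hopx rested on few events, with 32, 8 and 9 converted Ts at 12 h in pools A, B and C.

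**Figure D3:**
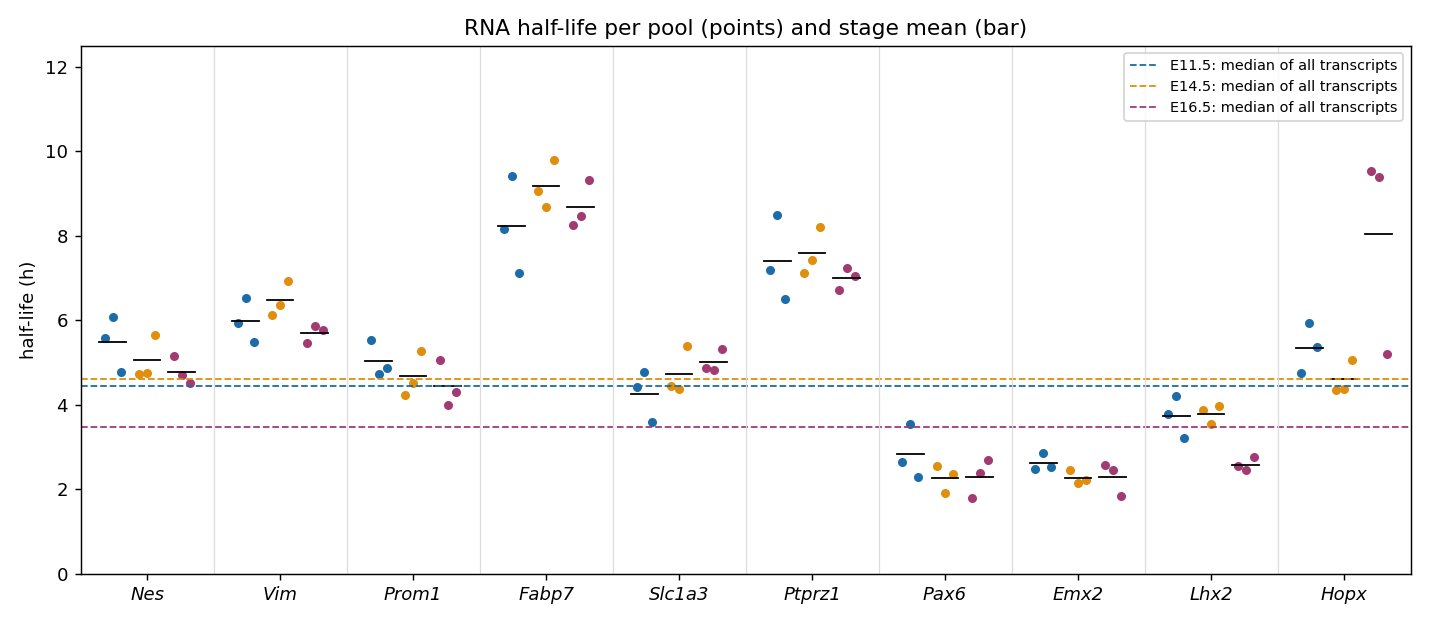
Half-life in hours (vertical axis) of each member (horizontal axis), with 1 point per pool, bars at the stage mean and dashed lines at the median of all transcripts of a stage. Fabp7 and Ptprz1 lie above and Pax6 and Emx2 below the medians at each stage, and the E16.5 pools of Hopx spread from 5.21 to 9.53 h.

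The half-lives rest on the fall of the conversion rate, which is shown here for the longest-lived and shortest-lived members. At 8 h Fabp7 kept 51.4%, 54.5% and 50.9% of its 0 h conversion rate (means of 3 pools, in order of stage) and Ptprz1 39.6%, 41.9% and 37.1%. Pax6 kept 18.6%, 14.1% and 13.3%, and Emx2 20.4%, 12.9% and 16.97%. By 12 h the mean rate of Pax6 was 0.186%, 0.204% and 0.129% and that of Emx2 0.240%, 0.183% and 0.131%. A background estimate was taken in each replicate from the lowest percentile of the 12 h rates of well-covered genes, so nearly all such genes lie above it by definition. It was 0.142% to 0.153% at E11.5, 0.132% to 0.148% at E14.5 and 0.110% to 0.122% at E16.5. The mean rates of Pax6 and Emx2 lay above it at each stage and nearest to it at E16.5. There the lowest pool of Pax6 read 0.0871%, below the whole range of the estimate, and that of Emx2 0.117%, within it. Other members were also low by then, such as Prom1 at 0.188%, 0.184% and 0.172%.

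**Figure D4:**
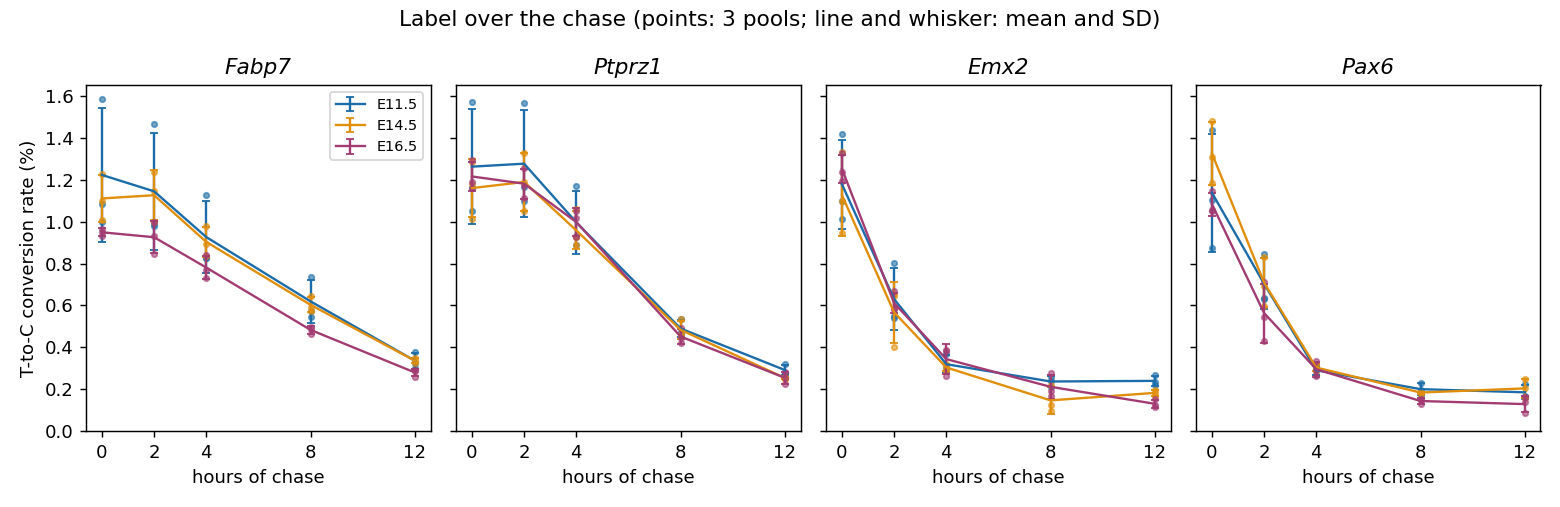
T-to-C conversion rate in percent (vertical axis) over the chase in hours (horizontal axis) for Fabp7, Ptprz1, Emx2 and Pax6, with points for the 3 pools of each stage and lines through their means. At 8 h Fabp7 kept 51.4%, 54.5% and 50.9% of its starting rate at the 3 stages, and Pax6 18.6%, 14.1% and 13.3%.

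Because the median half-life differed between stages, half-lives were compared as z-scores, the distance of a transcript from the mean of its replicate in SDs over transcripts. From E11.5 to E16.5 the label half-life of 4 members lengthened relative to other transcripts and that of none shortened. Beside this, 2.99% of 9505 transcripts were longer and 1.71% shorter (limma). These were Fabp7 (1.16 ± 0.16 SD, adjusted p = 0.0117), Slc1a3 (0.99 ± 0.12, 0.00849), Ptprz1 (0.59 ± 0.12, 0.0333) and Vim (0.51 ± 0.11, 0.0425). The other 6 did not pass: Hopx 2.21 ± 0.63 (adjusted p = 0.0910), Nes 0.25 (0.347), Prom1 0.24 (0.598), Emx2 0.21 (0.443), Pax6 0.13 (0.713) and Lhx2 -0.17 (0.366). The member median was 0.38 against -0.01 for all transcripts. The conversion rate also falls when unlabelled RNA is added. In CPM, Slc1a3 at 8 h stood at 205% of its 0 h mean at E11.5 and at 124% at E16.5. The part of this rise in its half-life change was not tested.

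From E14.5 to E16.5 3 members passed, beside 0.684% longer and 0.200% shorter of all transcripts: Fabp7 (0.97, adjusted p = 0.0453), Slc1a3 (0.86, 0.0322) and Ptprz1 (0.72, 0.0430). Hopx differed by 2.72 (adjusted p = 0.0898). No member passed from E11.5 to E14.5, beside 0.200% of transcripts in either direction. Over any stage 3 members passed (Slc1a3, Fabp7 and Ptprz1), beside 3.15%. These are changes of the z-score and not of hours. In hours none of the 4 members called between E11.5 and E16.5 passed. Their differences were 0.46 h for Fabp7, 0.74 h for Slc1a3, -0.39 h for Ptprz1 and -0.28 h for Vim.

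After subtraction of the background estimate only Fabp7 and Slc1a3 of the 4 passed between E11.5 and E16.5, with Vim at adjusted p = 0.242 and Ptprz1 at 0.124. Without any one of E11.5 pool A or B or E16.5 pool A, B or C both Vim (adjusted p up to 0.149, without E16.5 pool B) and Ptprz1 (up to 0.126, without E16.5 pool B) were lost. None of the 3 calls between E14.5 and E16.5 survived the loss of any pool (adjusted p of 0.0622 to 0.134), whereas Hopx passed without E16.5 pool C in both comparisons (3.04, adjusted p = 0.00783, and 3.56, 0.00805). Of the 21 other progenitor genes measured, 5 were relatively longer-lived and none shorter-lived at E16.5 than at E11.5: Ddah1 (1.75 SD), Tnc (1.29), Aldoc (1.27), Mki67 (0.60) and Top2a (0.54). Aldoc and Tnc are genes of glial cells, and Mki67 and Top2a act in dividing cells.

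Finally, the label that had entered each member by 0 h was compared with that of other transcripts in the same library. The median conversion rate of a library was 1.02% to 1.45% in the E11.5 pools, 1.04% to 1.21% in the E14.5 pools and 1.78% to 1.88% in the E16.5 pools. At E11.5 and E14.5 the mean rates of the members lay between 95.2% and 121% of the library median. The highest were Hopx at E11.5 (121%) and Pax6 and Prom1 at E14.5 (118% and 112%). At E16.5 the members lay at 51.6% (Fabp7) to 84.7% (Lhx2) of the library median.

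Fabp7 stood at 52.3%, 50.7% and 51.9% of the library median in the E16.5 pools, Slc1a3 at 52.9%, 51.8% and 54.1% and Vim at 54.7%, 55.8% and 55.9%. Pax6 read 64.5%, 55.9% and 56.6%, Nes 60.8%, 62.8% and 67.9%, Ptprz1 65.3%, 63.4% and 69.6% and Emx2 67.0%, 65.9% and 71.2%. Prom1 (75.6%, 84.3% and 87.5%) and Lhx2 (83.4%, 86.6% and 84.0%) were nearest to the median transcript. Hopx spread most, at 74.6%, 38.1% and 53.7%. For all 10 members the 3 E16.5 pools were below all pools of both earlier stages. The share of all genes separated in this way was not counted, so this is a description only.

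Between E14.5 and E16.5 all 10 members fell relative to the median transcript, beside 11.3% of 12522 tested genes lower and 5.78% higher (limma). The log2 changes ran from -1.00 for Pax6 (adjusted p = 2.75e-04), -0.98 for Slc1a3 (3.08e-04) and -0.93 for Fabp7 (1.35e-04) to -0.44 for Prom1 (0.0168) and -0.19 for Lhx2 (0.0249). Between E11.5 and E16.5 9 members fell, beside 10.3% lower and 6.84% higher, led by Hopx (-1.18, adjusted p = 0.00737), with Prom1 not passing (-0.28, adjusted p = 0.0796). Between E11.5 and E14.5 no member passed, beside 0.160% of genes.

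These differences are relative to a median that itself rose by 0.71 on the log2 scale from E14.5 to E16.5. In uncentred rates Lhx2 was higher at E16.5 than at E14.5 (0.52, adjusted p = 0.0129) and the other 9 did not pass, with changes from -0.29 (Pax6) to 0.27 (Prom1). The E14.5 to E16.5 call of Lhx2 was lost whichever pool was left out (adjusted p of 0.0534 to 0.0822), that of Prom1 without E14.5 pool A or B or E16.5 pool A (0.0570 to 0.0601) and that of Hopx without E14.5 pool A or B or E16.5 pool C (0.0647 to 0.0710). Of the other progenitor genes tested 17 of 21 were relatively lower in label and none higher between the same stages, and of 10 neuronal genes 6 were higher and none lower.

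**Figure D5:**
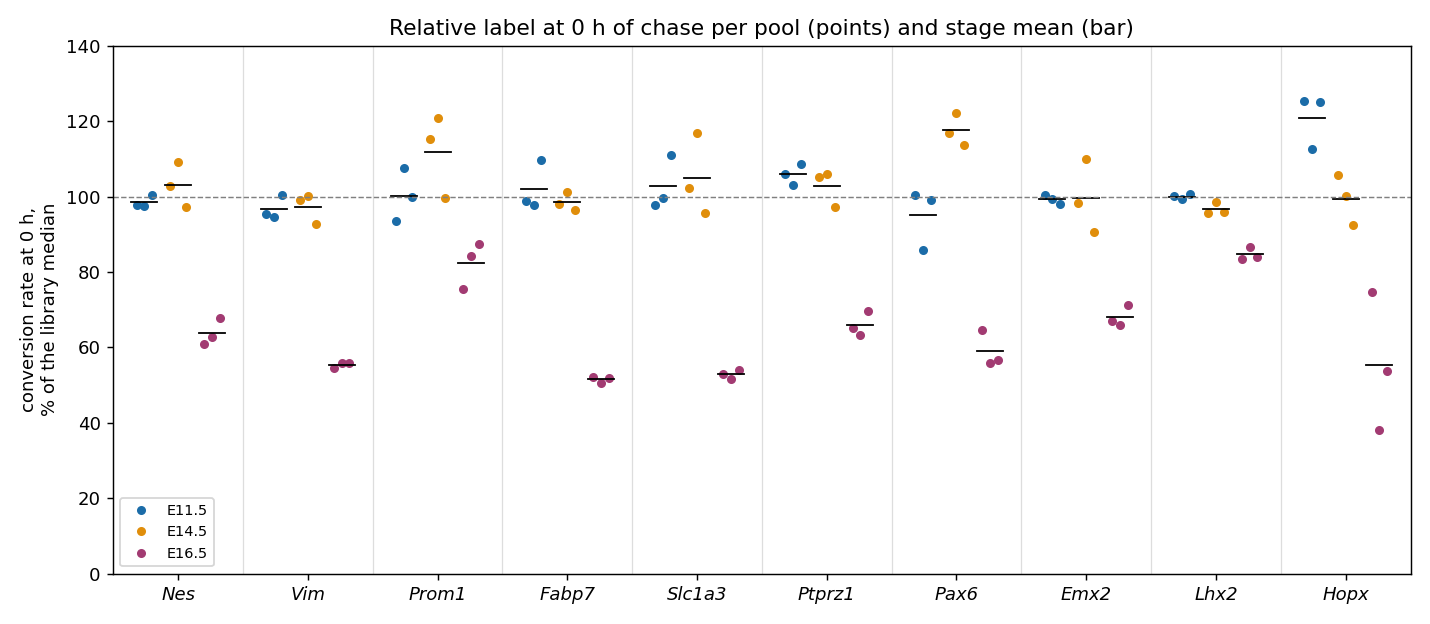
Conversion rate of each member at 0 h as a percent of the median of its library (vertical axis) in the 3 pools of each stage (horizontal axis, members). The E16.5 pools of all 10 members lie below those of E11.5 and E14.5, with Fabp7 at a mean of 51.6% and Lhx2 at 84.7%. The share of all genes separated in this way was not counted.

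For each member the gene with the most similar level over the 45 libraries was sought among 10344 genes, as a description with no test, since the libraries fall into 3 stages and share pools. Emx2 and Pax6 were both most like Otx1 (Pearson r 0.991 and 0.986), a homeodomain gene of the early forebrain. Nes was most like Yap1 (0.987), Vim like Clic1 (0.992), Prom1 like Nedd4 (0.988), Fabp7 like Pnp (0.993) and Lhx2 like Gnai2 (0.983). Hopx was most like Hbb-y (0.989), an embryonic globin, and the erythroid genes were summed at 1153.9 CPM or more in the E11.5 libraries only. Slc1a3 (Gper1, 0.936) and Ptprz1 (Slfn9, 0.929) had the least similar best partners. Among the members Vim and Hopx (0.981), Emx2 and Hopx (0.981) and Vim and Emx2 (0.980) ran closest, and Slc1a3 correlated with the others between -0.68 (Lhx2) and 0.07 (Ptprz1).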

How the data were processed

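Cells, pools and labelling were as described in the report. The authors aligned reads to mouse genome mm10 with SlamDunk 0.4.3 and GENCODE release 24 annotation. The deposited tables gave per gene and library the covered Ts as counts, the conversion rate as a fraction, reads as CPM, and a half-life with its fit R2. The half-lives came from a single exponential fitted to rates relative to 0 h, and refitting gave 99.996% of 109733 within 1%. CPM values were whole reads at 100% of values within 0.01 reads.

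Counts of covered Ts were tested with edgeR 4.0.16 (R 4.3.3) by its quasi-likelihood F-test, with TMM scaling, on genes over 10 counts in all libraries compared. Half-life z-scores of 9505 transcripts and log2 conversion rates of 12522 genes, centred on the library median, were tested with limma 3.58.1. The threshold was an adjusted p of 0.05 (Benjamini-Hochberg over all features). DESeq2 1.42.0 and limma on log2(CPM + 1) were alternatives. The expression tests, the decay fit and the half-life tests were each tried on simulated data. The time-course regression tool named in the study's methods was not used here. GENCODE release 21 supplied coordinates and sequences, and 51579 of 53491 symbols (96.4%) matched.

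Groups came from the labels. Pool letters mark the same cells within a stage (same-pool correlations of deviations between 0 h and 12 h 0.27 to 0.64). Counts with the pool as a block are therefore given there, with blocked values of single members only where the block is named. Across stages the letters name different embryos. The 10 members and all gene lists were chosen with earlier results of these data known. All members are named, the list gene with the largest rise or fall where given, and the gene most like each member by Pearson correlation of log2(CPM + 1) among genes with a mean of over 5 CPM. Other named list genes were chosen after their values were seen. Depth was 228.7 to 629.1 M covered Ts per library, and intervals cover counting error only.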

Additional observations from a re-analysis of the deposited data

Results flagged for a closer look

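The change between 0 h and 12 h of the chase differed between stages for 4 members, in a test of the difference itself in edgeR over all 45 libraries that was added after seeing the data. The shares of 16559 tested genes called were 1.36% higher and 4.70% lower for E14.5 against E11.5, 3.47% higher and 5.43% lower for E16.5 against E11.5, and 0.906% in either direction for E16.5 against E14.5, where no member passed. Slc1a3 rose less over the chase at E14.5 than at E11.5, by a log2 difference of -0.97 ± 0.14 (adjusted p = 1.16e-05), and less at E16.5 than at E11.5, by -0.85 ± 0.14 (adjusted p = 7.31e-05). Both differences passed whichever pool was left out. Pax6 differed in the same direction, by -0.51 ± 0.13 at E14.5 (adjusted p = 0.00918) and -0.53 ± 0.13 at E16.5 (adjusted p = 0.00490) against E11.5. The E14.5 value of Pax6 was not called without E11.5 pool B (adjusted p = 0.0813) or E14.5 pool C (0.0506).

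Ptprz1 rose more over the chase at E14.5 than at E11.5, by 0.42 ± 0.12 (adjusted p = 0.0283), and was not called without E11.5 pool A or C or E14.5 pool A or B (adjusted p = 0.149, 0.0968, 0.0599 and 0.165). Fabp7 rose more at E16.5 than at E11.5, by 0.49 ± 0.14 (adjusted p = 0.0227), and did not pass whichever pool was left out (adjusted p of 0.0514 to 0.164). With the pool as a block, Fabp7 was also called for E14.5 against E11.5 (0.30, adjusted p = 0.00651) and Ptprz1 for E16.5 against E11.5 (0.27, adjusted p = 0.0185).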

How the results depend on the processing

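Of the single-member values, 439 of 450 alternatives of the 0 h comparison kept direction and side of the threshold, 309 of 360 over the chase, 50 of 64 for the difference of the chase change, 134 of 193 for half-lives and 168 of 200 for label; the causes of the changes below were not tested.

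With the 12 h libraries, 2 members were higher at E14.5 and 0 at E16.5 than at E11.5, and Ptprz1 reversed to 0.24. Over the chase at E11.5, members lower numbered 1 with recovered reads, DESeq2 size factors or DESeq2, 2 with counts over 100 and 4 with limma, where Fabp7 was -0.0065; leaving out a pool in turn moved Lhx2 from -0.099 to 0.014. At E14.5 members lower numbered 1 with no count filter or with 0 h and 12 h libraries alone.

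With the replicate block over the chase, members higher and lower numbered 5 and 2 at E11.5. At E14.5 5 were higher and 4966 genes were called (2702 without), and at E16.5 2 were lower. The block called 32.4%, 27.7% and 37.0% of all tested genes in either direction, in order of stage. For the difference of the chase change the block gave 2352 genes and 3 members higher (E14.5 against E11.5), 1049 (E16.5 against E14.5) and 3199 with 3 members higher (E16.5 against E11.5), in place of 1005, 150 and 1474. Across stages letters name different embryos (correlations of same-letter deviations -0.13 to 0.17), and the block there gave 0 half-life calls with 0 members over any stage, 0 for E14.5 against E11.5, 0 with 0 members higher for E16.5 against E14.5 and 151 with 2 members higher for E16.5 against E11.5, and 0 label calls for E14.5 against E11.5.

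Half-life calls over any stage (299, 3 members) became 2296 and 1 member in hours, 581 with the amplitude fitted and 547 with R2 over 0.8, and 1 member with log2 half-lives or background subtracted. For E14.5 against E11.5 (19) they were 7 in hours, 0 with log2, 51 with the amplitude fitted, 8 from 2 h on, 40 with background subtracted, 93 with R2 over 0.8 and 38 with covered Ts over 2000. For E16.5 against E14.5 (84, 3 members longer) they were 3620 in hours with 1 member longer and 1 shorter, 44 with log2 and 0 longer, 309 with the amplitude fitted and 6 longer, 207 with R2 over 0.8, 142 with covered Ts over 2000, and 0 members longer with background subtracted. For E16.5 against E11.5 (447, 4 longer) they were 1222 in hours with 0 longer, 718 with the amplitude fitted, and 2 members longer with log2 or background subtracted. In hours Fabp7 (-0.49) and Ptprz1 (-0.58) reversed from E14.5 to E16.5, and Nes (-0.69), Vim (-0.28), Prom1 (-0.59), Ptprz1 (-0.39), Pax6 (-0.53) and Emx2 (-0.33) from E11.5 to E16.5; Lhx2 reversed to 0.15 with points from 2 h on.

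Without centring, label calls were 5 for E14.5 against E11.5 (20 with it; 33 with covered Ts over 2000), 10360 with 1 member higher and 0 lower for E16.5 against E14.5 (2143), and 9849 with 1 higher and 1 lower for E16.5 against E11.5 (2142). Nes (0.020), Prom1 (0.27), Ptprz1 (0.073), Emx2 (0.16) and Lhx2 (0.52) then reversed from E14.5 to E16.5, and Nes (0.020), Prom1 (0.36), Emx2 (0.10) and Lhx2 (0.41) from E11.5 to E16.5.

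Leaving out 1 pool at a time, genes called over the chase numbered 1443 to 3974 at E11.5, 750 to 1735 at E14.5 and 2577 to 2900 at E16.5, with members lower 0 to 1, 0 to 1 and 0 to 1 and, at E14.5, members higher 0 to 3. The difference of the chase change gave 516 to 998 genes for E14.5 against E11.5 (members higher 0 to 1, lower 1 to 2), 28 to 71 for E16.5 against E14.5 and 800 to 1448 for E16.5 against E11.5 (members higher 0). Half-life calls numbered 3 to 267 over any stage (members 0 to 3), 1 to 44 for E14.5 against E11.5, 0 to 15 for E16.5 against E14.5 (members longer 0 to 1) and 94 to 400 for E16.5 against E11.5 (members longer 2 to 4). Label calls numbered 0 to 38, 1242 to 1729 and 1291 to 1827 in the same order.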
